A study of Mus musculus with 6 samples.

Results

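The genes studied here are the 9 that carry growth hormone, insulin-like growth factor (IGF) and insulin signals into muscle cells and that were listed by name: Ghr, Igf1, Igf1r, Igf2r, Insr, Irs1, Irs2, Igfbp4 and Igfbp5. Their RefSeq accessions were matched to mouse gene symbols, and all 9 were found among 34656 genes and were among the 12461 that were tested. The samples are cultures of primary myoblasts, the muscle precursor cells, taken from the skeletal muscle of male mice 1 month old, either SfpqSM-KO mice (Sfpq knockout, 3 libraries) or mice labelled control (3 libraries). Cells of both groups were expanded with 2.5 ng/mL of the growth factor bFGF in 20% fetal bovine serum and then kept for 4 days in 2% horse serum, in which myoblasts fuse into myotubes. The targeted gene encodes Sfpq, a nuclear RNA-binding protein that acts in transcription and splicing. The labels name neither the driver of the deletion, nor the exons removed, nor the genotype of the control mice, and they do not say whether each library came from its own mouse or culture. The p-values below therefore measure the spread between libraries, which may be technical.

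Growth hormone binds Ghr, which signals through the kinase Jak2 and the STAT5 transcription factors and induces Igf1 and feedback inhibitors such as Cish and Socs2. IGF-1 and insulin bind the related tyrosine kinase receptors Igf1r and Insr, which phosphorylate the adaptors Irs1 and Irs2 and so activate PI3 kinase, Akt and mTORC1, the pathway that promotes protein synthesis and glucose uptake in muscle. Igf2r, the cation-independent mannose-6-phosphate receptor, takes IGF-2 up for breakdown and does not signal as a kinase. Igfbp4 and Igfbp5 are secreted proteins that hold IGFs and alter how much reaches the receptors, and Igfbp5 is made in large amounts by differentiating myoblasts.

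Values are TPM, a share of all transcripts in the library that is scaled for transcript length and can be compared between genes. Read depth cannot be recovered from TPM and is unknown here. Sfpq itself stood at 14.1 to 19.3 TPM in the knockout libraries and at 48.6 to 60.5 TPM in the control libraries. The marker genes of differentiated muscle summed to 52595 to 55423 TPM in knockout and 45202 to 46841 TPM in control, so the groups did not overlap. Most of that sum is Acta1, skeletal muscle actin, and without it the sums were 21011 to 24400 TPM in knockout and 20928 to 22386 TPM in control, which overlapped. By gene, 6 of the 8 muscle markers had a log2 difference above 0 and 2, Myh8 (-0.50) and Ckm (-0.22), below. The 8 fibroblast markers summed to 169 to 222 TPM in knockout and 204 to 298 TPM in control. Of these 8, 3 passed the filter on low values, Lum was listed at 0 in 5 libraries, and Col1a1 ran from 11.1 to 24.9 TPM in knockout against 30.3 to 75.9 TPM in control. The groups of the other tested fibroblast markers overlapped, with log2 differences of -0.34 for Col3a1 and 0.38 for Ly6a. The myoblast markers summed to 899 to 993 TPM in knockout and 587 to 1017 TPM in control, carried by Myod1 (log2 difference 0.42) and Cdh15 (0.23). The other 4 of the 6 were below 0 and the list's median was -0.44, with Pax7 at -0.38, Myf5 at -0.68, Vcam1 at -0.51 and the proliferation marker Mki67 at -0.75, whose groups did not overlap (0.23 to 1.23 against 1.53 to 1.96 TPM). The adipocyte markers summed to 5.58 to 6.47 TPM in knockout and 7.19 to 8.38 TPM in control, without overlap. Nearly all of that was Cebpa (log2 difference -0.29), whose groups did not overlap. Adipoq, Plin1, Fabp4, Lep and Cidec did not pass the filter. Their highest value was 0.12 TPM (Lep, control replicate 2). The endothelial, macrophage and Schwann cell markers summed to at most 2.60, 2.15 and 1.53 TPM, with Emcn, Ptprc and Adgre1 listed at 0 throughout. The part of these marker differences in the results below was not tested, and in bulk cultures fewer cells of a type and less RNA per cell cannot be told apart.

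The 9 genes covered levels from 1.01 TPM (Igf1) to 1217 TPM (Igfbp5). Over the 6 libraries Igfbp5 had the highest mean level (931 TPM), followed by Igf2r (100.8), Ghr (36.1), Igfbp4 (25.4), Insr (12.4), Irs1 (12.2), Igf1r (10.5), Irs2 (2.25) and Igf1 (1.46). Igfbp5 lay above Igf2r, Igf2r above Ghr and Igf1r above Irs2 in every library with no overlap of their ranges. The neighbours Insr and Irs1 changed places between libraries, with Insr above Irs1 in 3 of 6. Ghr lay above Igfbp4 in 4 of 6 libraries. Transcripts of the ligand Igf1 were thus the scarcest of the set, while Igf2, which encodes the other IGF, had a mean of 1289 ± 391 TPM among knockout libraries and 1211 ± 182 TPM among controls (SD, n = 3).

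**Figure D1:**
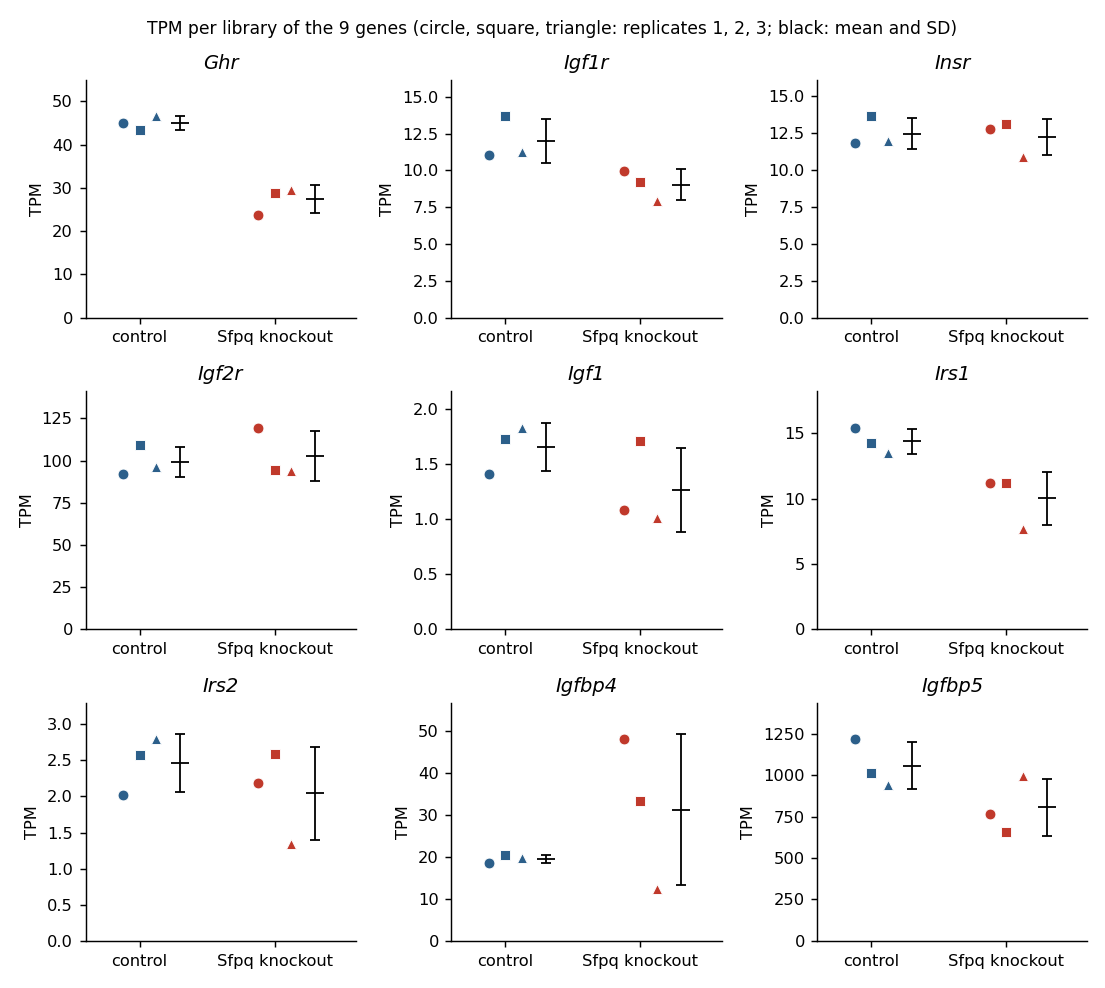
TPM (vertical axis, from 0, a separate scale for each gene) of the 9 genes in each control library (blue) and Sfpq knockout library (red), with replicates 1, 2 and 3 as circle, square and triangle and the mean and SD in black. The groups do not overlap for Ghr, Igf1r and Irs1, and the knockout libraries of Igfbp4 spread from 12.4 to 48.1 TPM.

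No member passed the test over all genes. limma with Benjamini-Hochberg adjustment called 0 of the 9, as it called 0% of all tested genes in each direction. The targeted gene Sfpq did not pass either (log2 difference -1.57, limma adjusted p = 0.0531). It ranked 3 by unadjusted p, and no tested gene had a lower adjusted p. A missing call therefore does not show that a gene was unchanged. The log2 difference, knockout minus control on the log2(TPM + 1) scale, was below 0 for 7 of the 9, and their median was -0.24 against -0.07 for all tested genes, of which 64.5% were below 0. In 3 members, Ghr, Igf1r and Irs1, every knockout library lay below every control library, which was so for 15.3% of all tested genes. None of the 9 had every knockout library above every control library (4.27% of tested genes). The same 3 had an unadjusted limma p under 0.05 with knockout lower (9.62% of tested genes), and none did with knockout higher (2.68% of tested genes). Since the median of all genes lies below 0 on the deposited scale, the libraries were also scaled by median-of-ratios, which brought that median to 0.01, and the median of the 9 to -0.19. On that scale 6 of the 9 were below 0, against 48.5% of tested genes. The groups of Ghr, Igf1r and Irs1 did not overlap on that scale either, with knockout lower (8.61% of tested genes), and 0 of the 9 had the reverse (9.93%). An unadjusted limma p under 0.05 was then reached by 3 of the 9 with knockout lower (5.31% of tested genes) and by 0 with knockout higher (6.32%).

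Ghr, the growth hormone receptor, showed the clearest difference of the set. It stood at 23.6, 28.8 and 29.6 TPM in Sfpq knockout replicates 1, 2 and 3 and at 44.9, 43.4 and 46.6 TPM in control replicates 1, 2 and 3. The highest knockout library thus lay well below the lowest control library, and the controls lay close together. The means were 27.3 ± 3.21 and 45.0 ± 1.57 TPM (SD, n = 3), 1.65 times as high in control. The log2 difference was -0.70 (SE 0.11, 95% interval -0.96 to -0.45), which ranked 39 among 12461 genes by p and did not pass (limma adjusted p = 0.108). It ran from -0.76 to -0.61 when single libraries were left out and was -0.62 after median-of-ratios scaling. Ghr lies on the minus strand of chromosome 15, from 3317755 to 3583352 in GRCm38, and the annotated transcript that matches its accession has 11 exons and a first intron of 123.8 kb. Its span overlaps 0 other annotated genes.

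Igf1r, the IGF-1 receptor, stood at 9.98, 9.22 and 7.91 TPM in knockout replicates 1 to 3 and at 11.0, 13.7 and 11.2 TPM in control replicates 1 to 3. The groups came close to each other without overlapping. The log2 difference was -0.37 (SE 0.13, 95% interval -0.68 to -0.06, limma adjusted p = 0.348). Insr, the insulin receptor, held nearly the same mean in both groups, with 12.8, 13.1 and 10.9 TPM in knockout against 11.8, 13.6 and 11.9 TPM in control. Its log2 difference was -0.02 with a 95% interval of -0.30 to 0.25, and its sign was positive, 0.05, after median-of-ratios scaling. The ratio of Igf1r to Insr, formed after these values were seen, was 0.78, 0.70 and 0.73 in knockout and 0.93, 1.00 and 0.94 in control. It gave 0.74 ± 0.040 and 0.96 ± 0.038 (SD, n = 3), and the groups did not overlap. That ratio compares 2 genes within a library, so it does not depend on how the libraries are scaled to each other, and no test of it was made.

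Igf2r stood at 119.6, 94.4 and 93.6 TPM in knockout and at 92.0, 109 and 96.2 TPM in control. Its groups overlapped fully, with knockout replicate 1 the highest library and control replicate 1 the lowest. The log2 difference was 0.04 (SE 0.12, 95% interval -0.25 to 0.34), and it was -0.07 without knockout replicate 1 and -0.01 without control replicate 1. Igf2r lies on the minus strand of chromosome 17, from 12682406 to 12769706, where the noncoding RNA Airn runs on the opposite strand from 12741311 to 12860136. Airn is the antisense RNA that silences the paternal Igf2r allele in most mouse tissues. It had a mean of 5.23 ± 1.09 TPM in knockout and 4.52 ± 0.58 TPM in control (n = 3) and overlapping groups. No source used here says whether reads were counted by strand, so reads of the pair in the shared interval may not be separable.

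Of the adaptors, Irs1 stood at 11.2, 11.2 and 7.64 TPM in knockout and at 15.4, 14.2 and 13.5 TPM in control. Each knockout library lay below each control library, and knockout replicate 3 lay lowest. The means were 10.01 ± 2.05 and 14.4 ± 0.97 TPM (SD, n = 3), with a log2 difference of -0.50 (SE 0.16, 95% interval -0.88 to -0.12, limma adjusted p = 0.319). Without knockout replicate 3 the log2 difference of Irs1 was -0.33. Irs2 was lower in level and its groups overlapped, at 2.19, 2.59 and 1.34 TPM in knockout against 2.02, 2.58 and 2.79 TPM in control. Its log2 difference was -0.20 (SE 0.20, 95% interval -0.67 to 0.26), and -0.03 without knockout replicate 3. Irs1 transcripts exceeded those of Irs2 by 4.32 to 7.64 times in the 6 libraries. The annotation places the protein-coding gene model Gm9747 on the opposite strand at the 3′ end of the Irs1 span, and that model was not analysed here.

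The ligand Igf1 stood at 1.09, 1.71 and 1.01 TPM in knockout and at 1.41, 1.73 and 1.83 TPM in control. The groups overlapped, and the log2 difference was -0.24 (SE 0.17, 95% interval -0.63 to 0.16, limma adjusted p = 0.589). At levels this close to the pseudocount of 1 the log2(TPM + 1) scale understates a difference. With a pseudocount of 0.1 it was -0.39, and with a pseudocount of 5 it was -0.09. It was -0.37 without knockout replicate 2 and -0.16 without knockout replicate 3. The files hold 1 accession for Igf1, as for each of the 9 genes, so the splice forms of IGF-1 and of the growth hormone receptor could not be separated.

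Of the binding proteins, Igfbp5 stood at 765, 655 and 996 TPM in knockout and at 1217, 1016 and 939 TPM in control. Only knockout replicate 3 lay within the control range, and the log2 difference was -0.41 (SE 0.18, 95% interval -0.83 to 0.02, limma adjusted p = 0.423). Igfbp4 stood at 48.1, 33.4 and 12.4 TPM in knockout and at 18.5, 20.4 and 19.7 TPM in control. Its controls lay within 1.11 times of each other, while the knockout libraries differed by up to 3.87 times and lay on both sides of the controls. The log2 difference of 0.46 (SE 0.44, 95% interval -0.58 to 1.51, limma adjusted p = 0.692) was 1.00 without knockout replicate 3, 0.07 without knockout replicate 1 and 0.32 without knockout replicate 2.

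**Figure D2:**
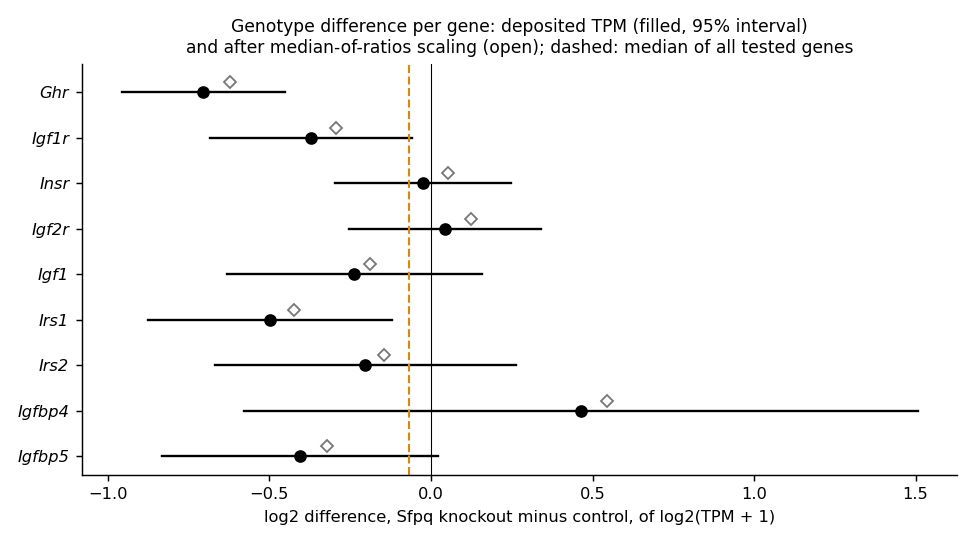
Log2 difference of each of the 9 genes (horizontal axis, knockout minus control) with its 95% interval from limma (filled points) and the same difference after median-of-ratios scaling (open diamonds). The dashed line is the median of all tested genes at -0.07. The intervals of Ghr, -0.96 to -0.45, and Irs1, -0.88 to -0.12, lie wholly below that line. That of Insr spans 0, and that of Igfbp4 is the widest.

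The 3 genes whose groups did not overlap are shown with the 250 bases before their RefSeq start, and Igfbp4 (whose listed start lies inside its annotated span) as the member whose knockout libraries spread most. The sequences are from RefSeq (GRCm38.p6), 5′ to 3′ on the gene's strand, and capitals mark every match on either strand to GGGCGG (the GC box bound by Sp1), CACGTG (the E-box of Myc and USF type) or TATAAA (the TATA box). CAGCTG (a myogenic E-box), TTCNNNGAA (the STAT element) and TGTTTAC (a FoxO element) were searched as well and have no match in these 4 sequences. The windows are chr15:3583353-3583602 (minus strand) for Ghr, chr7:67952007-67952256 (plus) for Igf1r, chr1:82291440-82291689 (minus) for Irs1 and chr11:99040994-99041243 (plus) for Igfbp4.
Ghr: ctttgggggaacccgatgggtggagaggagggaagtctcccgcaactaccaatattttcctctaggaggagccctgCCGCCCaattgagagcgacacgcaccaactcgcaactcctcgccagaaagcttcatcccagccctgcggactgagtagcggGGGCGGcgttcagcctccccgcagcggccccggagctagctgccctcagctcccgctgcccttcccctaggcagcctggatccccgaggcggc
Igf1r: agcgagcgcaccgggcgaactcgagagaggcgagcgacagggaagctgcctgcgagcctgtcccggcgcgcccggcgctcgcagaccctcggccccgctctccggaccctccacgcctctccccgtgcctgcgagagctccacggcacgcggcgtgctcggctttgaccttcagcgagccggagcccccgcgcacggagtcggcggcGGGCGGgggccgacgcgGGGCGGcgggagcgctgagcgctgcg
Irs1: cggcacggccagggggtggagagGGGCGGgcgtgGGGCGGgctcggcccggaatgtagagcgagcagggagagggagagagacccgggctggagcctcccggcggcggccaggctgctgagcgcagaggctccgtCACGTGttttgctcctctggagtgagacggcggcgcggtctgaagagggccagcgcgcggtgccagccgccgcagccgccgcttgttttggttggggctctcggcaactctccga
Igfbp4: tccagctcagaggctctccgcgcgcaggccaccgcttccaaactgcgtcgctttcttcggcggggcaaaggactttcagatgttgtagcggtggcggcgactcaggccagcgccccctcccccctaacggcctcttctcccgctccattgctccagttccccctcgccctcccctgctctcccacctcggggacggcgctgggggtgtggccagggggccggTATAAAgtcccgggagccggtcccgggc

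The printed windows of Ghr, Igf1r and Irs1 each hold 2 GC boxes and no TATAAA, while that of Igfbp4 holds TATAAA, which begins 28 bases before the start, and no GC box. RefSeq lists a second Ghr start, whose window (chr15:3581843-3582092) holds TATAAA 188 bases before that start and no GGGCGG. The base composition of these 4 windows was 65.6% G and C in Ghr, 77.6% in Igf1r, 72.4% in Irs1 and 69.2% in Igfbp4. The median was 52.4% over 32851 windows of the same length. First windows of members whose groups overlapped ran from 52.8% in Igf1 to 72.8% in Irs2. A window was found for 8 of the 9 genes. In the window of the first listed start, GGGCGG was present in 5 of the 8, including Igf2r and Irs2, whose groups overlapped, and it is present in 32.7% of all windows. CACGTG was present in 3 of the 8, Irs1, Irs2 and Igf2r, and in 6.02% of all windows. TATAAA is present in 12.4% of all windows, CAGCTG in 13.0%, TTCNNNGAA in 7.02% and TGTTTAC in 3.17%. These matches describe the sequence and no binding was measured.

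The title of the series concerns long genes, and the members cover a wide range of genomic span. Igf1r (281 kb, chromosome 7, 67952257 to 68233668) and Ghr (266 kb) are the longest, followed by Insr (129 kb, chromosome 8, 3150922 to 3279649), Igf2r (87.3 kb), Igf1 (78.8 kb, chromosome 10, 87858265 to 87937047) and Irs1 (58.3 kb, chromosome 1, 82233105 to 82291439). Irs2 (24.2 kb, chromosome 8, 10984681 to 11008929), Igfbp5 (16.8 kb, chromosome 1, 72858065 to 72874865) and Igfbp4 (12.7 kb, chromosome 11, 99040005 to 99052655) are short. Among tested genes with a span of at least 200 kb, the median was -0.20 on the deposited scale and -0.13 after median-of-ratios scaling, and 34.1% had every knockout library below every control library. Ghr (-0.70) and Igf1r (-0.37) both lay below that median. Insr, the third in length, lay at -0.02 against a median of -0.12 for tested genes of 100 to 200 kb. Irs1 lay at -0.50 against -0.10 for tested genes of 50 to 100 kb, a bin that also holds Igf2r (0.04). The order of the 9 by span was therefore not their order by difference, although the 2 longest were among the 3 without overlap.

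**Figure D3:**
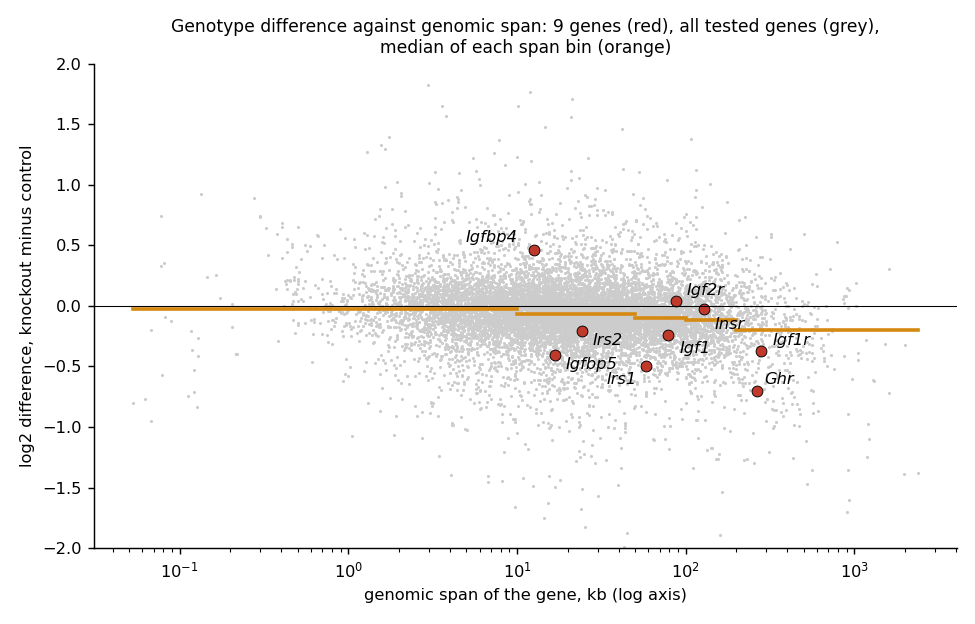
Log2 difference (vertical axis, knockout minus control) against genomic span in kb (horizontal log axis) for the 9 genes (red, named) and all 11954 tested genes with a span (grey, of which 4 lie beyond the plotted range of 2 on either side), with the median of each span bin in orange. The medians step down from -0.02 under 10 kb to -0.20 at 200 kb or more, and Ghr and Igf1r lie under the last of them.

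The wider pathway was described from 8 lists of genes chosen by function. Of 104 listed genes 94 were tested, and 62 of them had a log2 difference below 0. Among all tested genes 64.5% were below 0, a share that also applies to the counts below 0 of the single lists. limma called 0 of the 94. In 13 (13.8%) every knockout library lay below every control library, a share near the 15.3% of all tested genes. The reverse held for 0, against 4.27% of all tested genes. After median-of-ratios scaling the counts without overlap were 6 lower and 3 higher, against 8.61% and 9.93% of all tested genes. The median of the 94 was -0.07, as for all genes. After that scaling the medians of the ligands and binding proteins, the adaptors, the PI3 kinase, the mTORC1 and the FoxO lists were above 0, at 0.07, 0.07, 0.02, 0.01 and 0.05, while those of growth hormone signalling (-0.04), glucose handling (-0.18) and the Ras branch (-0.05) stayed below. With single libraries left out the same 3 lists kept medians below 0, growth hormone signalling from -0.15 to -0.04, glucose handling from -0.35 to -0.18 and the Ras branch from -0.24 to -0.04. The median of all tested genes also stayed below 0 there, from -0.10 to -0.04, so a median below 0 does not set these lists apart. The other 5 medians crossed 0, those of the ligands and binding proteins from -0.29 to 0.08 and of the FoxO list from -0.11 to 0.09. Without control replicate 2 all 5 were above 0.

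Among the genes of growth hormone signalling, 8 of 12 tested were below 0, with a median of -0.12, and 0 passed. Cish, a STAT5-induced inhibitor of cytokine receptor signalling, had the largest log2(TPM + 1) difference of the 94 pathway genes. It stood at 0.99, 1.89 and 1.51 TPM in knockout and at 3.81, 3.17 and 3.16 TPM in control. Its highest knockout library was well below its lowest control library, and the log2 difference was -0.84 (SE 0.17, limma adjusted p = 0.166). The value of Cish was -1.19 with a pseudocount of 0.1 and -0.38 with a pseudocount of 5. Socs3, an inhibitor of Jak kinases, stood at 19.8 ± 1.00 against 24.2 ± 2.78 TPM (knockout against control, SD, n = 3). Its groups did not overlap on the deposited scale and did after median-of-ratios scaling. Socs2, the inhibitor most closely tied to growth hormone, overlapped, with 18.3 to 22.2 TPM in knockout and 13.1 to 35.2 TPM in control. Jak2 (6.58 ± 1.24 against 8.26 ± 0.89 TPM), Stat5a (79.3 ± 1.40 against 93.6 ± 21.9 TPM) and Stat5b (88.8 ± 10.9 against 83.5 ± 8.15 TPM) also overlapped.

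Among the ligands, binding proteins and their proteases, 5 of 10 tested were below 0 and 5 above, with a median of -0.01. Htra1, a secreted serine protease that cleaves IGF-binding proteins, stood at 34.1, 48.7 and 30.3 TPM in knockout and at 62.8, 56.8 and 60.6 TPM in control, with no overlap and a log2 difference of -0.69 (SE 0.17, limma adjusted p = 0.242). The other binding proteins differed more between control libraries than between genotypes. Igfbp7 ran from 6.49 to 149.5 TPM in control and from 38.2 to 109 TPM in knockout. Igfbp6 ran from 5.79 to 31.7 TPM in control against 16.5 to 21.02 TPM in knockout, and Igfbp2 from 7.57 to 24.0 TPM against 4.96 to 21.8 TPM. Control replicate 1 was the lowest of the 6 libraries for 4 of the 10 genes, Igfbp3, Igfbp6, Igfbp7 and Pappa, the last a protease of Igfbp4 at 0.23 TPM there and 2.75 TPM in control replicate 2. Igfbp4 itself did not follow them, since control replicate 1 held 18.5 TPM of it, close to the other controls.

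**Figure D4:**
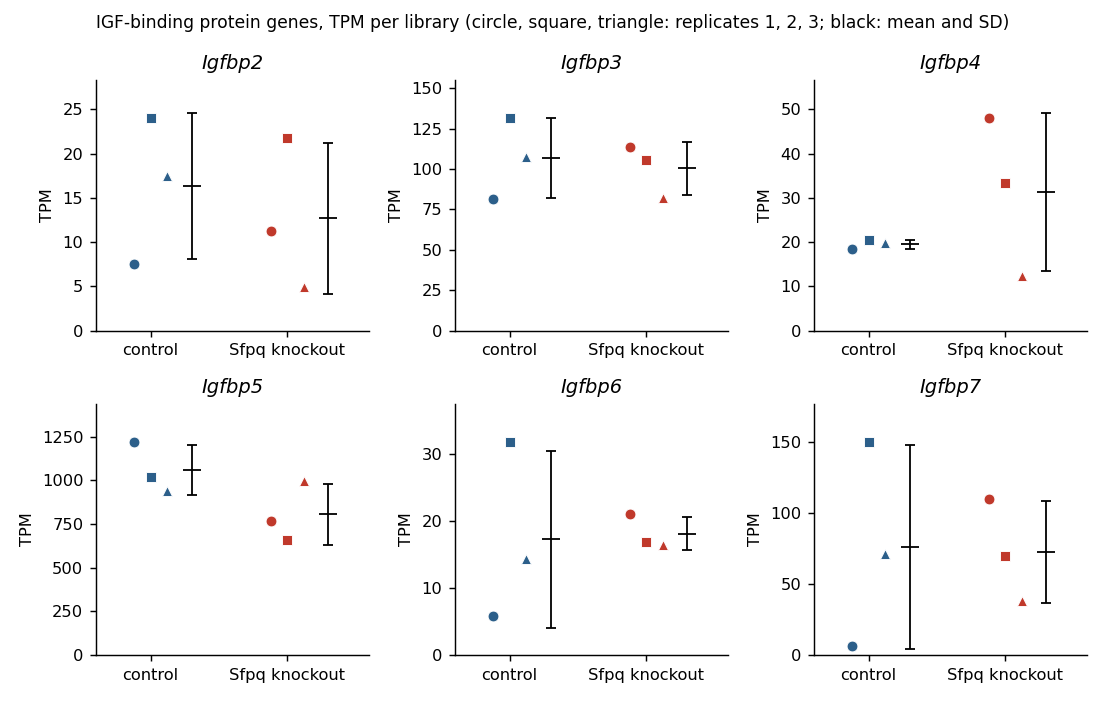
TPM (vertical axis, from 0, a separate scale for each gene) of 6 IGF-binding protein genes in control (blue) and Sfpq knockout libraries (red), with replicates 1, 2 and 3 as circle, square and triangle and the mean and SD in black. Igfbp7 runs from 6.49 to 149.5 TPM within control, whereas Igfbp4 is tight in control and wide in knockout.

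Downstream of the receptors the adaptors and inhibitors were split, 8 of 15 below 0, with a median of -0.01. Sos1, the exchange factor that activates Ras, was the one gene of this list whose groups did not overlap (6.84 ± 0.18 against 8.13 ± 0.54 TPM, log2 difference -0.22). That is 6.67% of the list, below the 15.3% of all tested genes without overlap and with knockout lower. Ptprf, a receptor tyrosine phosphatase, had a higher mean in knockout (20.6 ± 5.06 against 14.1 ± 6.51 TPM, log2 difference 0.59), as did the adaptor Sh2b2 (13.9 ± 1.99 against 10.8 ± 3.26 TPM, 0.36), and the groups of both overlapped. Of the PI3 kinase and Akt genes 11 of 15 were below 0 (median -0.05), and 0 had separate groups on the deposited scale. Among all tested genes 15.3% had separate groups with knockout lower and 4.27% with knockout higher. Pik3cb, a catalytic subunit of PI3 kinase, stood at 18.2 ± 2.77 against 14.5 ± 2.01 TPM, and after median-of-ratios scaling every knockout library lay above every control library. The main muscle kinases of this step, Akt1 and Akt2, were abundant and overlapped, with Akt1 at 396 to 451 TPM in knockout and 378 to 489 TPM in control. Of the mTORC1 and translation genes 11 of 15 were below 0 (median -0.07). Eif4e, the cap-binding factor, stood at 26.01 ± 1.76 against 32.3 ± 0.97 TPM without overlap on the deposited scale and with overlap after median-of-ratios scaling. Its repressor Eif4ebp1 stood at 172 ± 42.3 against 236 ± 23.5 TPM with overlap.

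The list of insulin-regulated glucose handling had the lowest median of the 8, -0.26. Of its 9 genes 8 were below 0, against 64.5% of all tested genes. Hk2, the insulin-induced hexokinase, stood at 36.9, 58.0 and 40.8 TPM in knockout and at 71.0, 60.2 and 76.3 TPM in control, and the groups did not overlap. Its log2 difference was -0.62 (SE 0.18, limma adjusted p = 0.289). Slc2a4, the insulin-responsive glucose transporter GLUT4, stood at 70.8, 110.4 and 90.2 TPM in knockout and at 212, 104 and 169 TPM in control. Control replicate 2 lay within the knockout range, so the groups overlapped (log2 difference -0.79, SE 0.28, limma adjusted p = 0.344). Gys1, muscle glycogen synthase, was at 557 ± 22.5 against 674 ± 71.6 TPM without overlap. On the deposited scale 3 of the 9 had separate groups with knockout lower, Hk2, Gys1 and Gsk3b (15.3% of all tested genes). After median-of-ratios scaling the list's median was -0.18, and the groups of Hk2, Gys1 and Gsk3b overlapped. On that scale 0 of the 9 had separate groups with knockout lower (8.61% of tested genes). The reverse held for 1, Gsk3a (9.93%).

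The FoxO factors and their ligase targets were split 3 and 3 (median -0.03), with Foxo3 at 29.5 ± 4.69 against 25.8 ± 0.13 TPM and Fbxo32, the ligase atrogin-1, at 14.7 to 19.0 TPM in knockout and 16.1 to 16.8 TPM in control. In the Ras and MAP kinase branch 8 of 12 were below 0 (median -0.13), and 3 had separate groups, with knockout lower, on the deposited scale (15.3% of all tested genes) and after median-of-ratios scaling (8.61%). Spry2, a feedback inhibitor of receptor tyrosine kinases, stood at 75.1 ± 10.04 against 91.8 ± 4.03 TPM. Braf, a kinase that relays the Ras signal, stood at 2.05 ± 0.077 against 2.67 ± 0.63 TPM. Dusp6, a feedback phosphatase of this branch, stood at 34.7 ± 5.07 against 47.1 ± 8.83 TPM with overlap.

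**Figure D5:**
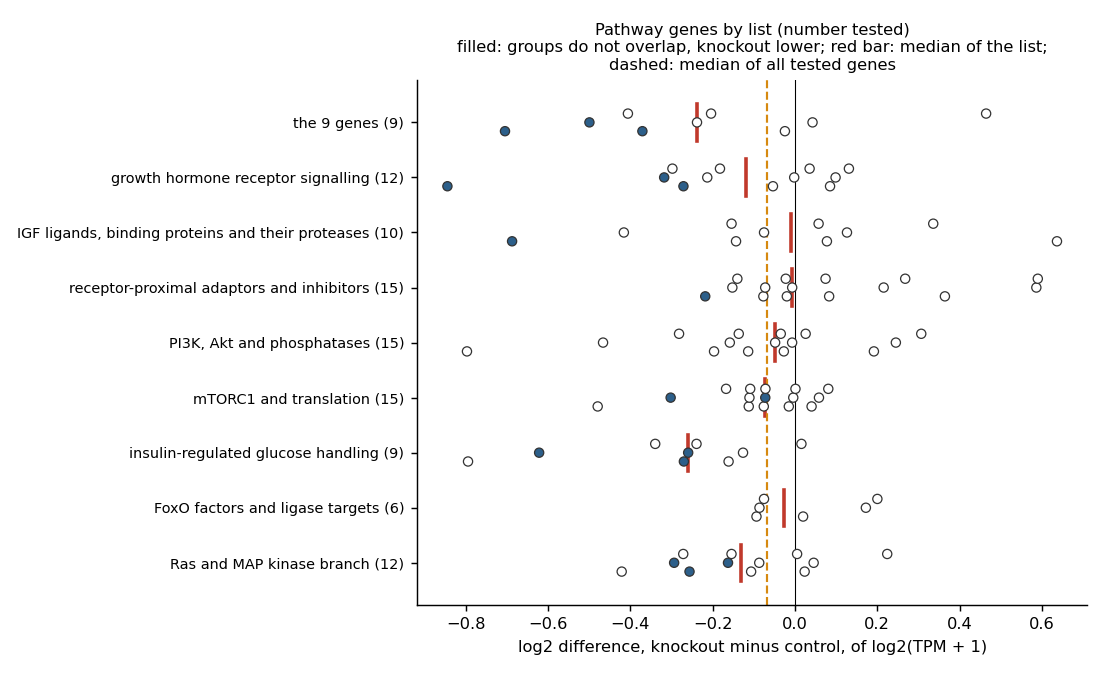
Log2 difference (horizontal axis, knockout minus control) of each tested gene, 1 point per gene, in the 9 genes and in 8 pathway lists (rows, number tested in brackets), filled where every knockout library lay below every control library. Red bars are list medians, from -0.26 for insulin-regulated glucose handling to -0.01 for the adaptors and for the ligands and binding proteins, and the dashed line is the median of all tested genes at -0.07.

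The tested genes whose log2(TPM + 1) followed Ghr most closely over the 6 libraries were Sec22b, a SNARE protein of vesicle transport, Ccn5, a secreted matricellular protein, and Otos, with Pearson r of 0.995, 0.995 and 0.994. Mean Ccn5 was 11.4 ± 2.42 TPM with the knockout against 33.4 ± 3.72 TPM without it (SD, n = 3). For Igfbp5 the closest were Cers1 and Gdf1, which share a transcription unit, and Zfp369, each with an r of 0.987. Cers1 and Gdf1 had means of 25.1 ± 2.21 TPM each in knockout, and their reads may not be separable. With 6 libraries in 2 groups many genes reach such values, since 137 tested genes had an r of at least 0.95 with Ghr and 24 with Igfbp5, and all of these values come from the same libraries.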

How the data were processed

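Polyadenylated RNA of the 6 cultures was sequenced on an Ion Proton, and groups were taken from the sample titles. The authors deposited TPM, with 1 value per RefSeq accession in each library and sums of 999999 to 1000001. Per the submitters' processing notes, STAR 2.4.1d and the mm10 genome were used. The sources used here name no counting tool, annotation release or strand setting. TPM keeps no depth, so no count model or counting interval was used.

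Of 34671 accessions, 30822 were named through a RefSeq table of GRCm38.p6, the assembly of mm10, and 103 through GENCODE M21. The other 3746 held at most 1.27% of TPM and kept their accession. TPM was summed per symbol. Genes that reached 1 TPM in 3 or more libraries entered the test, which was limma 3.58.1 under R 4.3.3 on log2(TPM + 1) (intensity trend, no block, 2-sided, Benjamini-Hochberg over 12461 genes, threshold 0.05). Fold changes on that scale understate the change of low genes. The test was checked on simulated data. The changes planted there were larger than the difference of any tested member or pathway gene. Its power at the sizes reported here was therefore not examined. Tables were joined in pandas 2.3.3 and drawn in matplotlib 3.10.9 (Python 3.11.15).

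The members and lists were chosen with earlier results of these data known. Beside the 9 members, the rule for named genes took Sfpq, the 3 smallest limma p of each pathway list, the 2 highest levels of each marker list (given here as sums) and the 3 genes closest to Igfbp5 and to Ghr. Other pathway genes, Airn and Lum were named for their role or after their values were seen. Some genes of the lists are not reported here. Promoter windows come from a RefSeq table of GRCm38.p6, and exons and overlaps from GENCODE. Alternatives covered quantile and median-of-ratios scaling, the pseudocount, the filter, limma's moderation, a replicate block, the accession with the highest TPM in place of the sum, and each library left out.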

Additional observations from a re-analysis of the deposited data

How the results depend on the processing

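The 9 genes stayed without a call in all 16 alternatives. Of 523 values of the 33 members and pathway genes tracked, 514 kept their direction and none passed the threshold. The filter, the intensity trend, limma's moderation and the replicate block leave a gene's log2 difference as it was. So does the choice of accession for the members. No direction could turn under these, so the count of 514 overstates how stable the directions are. limma called 2 genes higher and 11 lower with a pseudocount of 5, 1 and 6 with a mean TPM of at least 5, and 1 and 1 without the intensity trend, against 0 and 0 otherwise. At an unadjusted p under 0.05 the counts of 334 higher and 1199 lower became 787 and 662 after median-of-ratios scaling, 694 and 677 after quantile normalization and 563 and 1675 without a filter. With single libraries left out they ran from 216 to 624 and from 683 to 1294. The median of the 9 ran from -0.34 to -0.16 with single libraries left out and from -0.39 (pseudocount of 0.1) to -0.09 (pseudocount of 5) otherwise. It was -0.37 over the 7 members with a mean TPM of at least 5. Signs turned for 5 genes, of which Insr, Igf2r and Foxo4 lay near 0 and Igfbp2 (-0.42) and Igfbp6 (0.34) did not. Insr was 0.053 after median-of-ratios scaling and 0.077 after quantile normalization. With 1 library left out, Insr ran from -0.072 to 0.054, Igf2r from -0.072 to 0.11, Foxo4 from -0.20 to 0.0034 (without knockout replicate 1), Igfbp2 from -0.89 to 0.080 (without knockout replicate 3) and Igfbp6 from -0.24 (without control replicate 1) to 0.90. The cause was not tested. Same-numbered libraries of the 2 groups did not deviate together (correlations of -0.26, -0.25 and 0.05), so the numbers are not taken as pairs. Between differently numbered libraries the correlations ran from -0.27 (knockout replicate 1, control replicate 3) to 0.41 (knockout replicate 1, control replicate 2). With the replicate block limma called 0 genes, the unadjusted counts were 224 and 835, and no member passed. Depth limits cannot be stated from TPM, and members near 1 TPM (Igf1, Irs2) depend most on the pseudocount.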

Other observations

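Some pathway genes differed more between libraries of 1 group than between genotypes. Trib3, a stress-induced pseudokinase that binds Akt, stood at 6.16, 41.1 and 10.7 TPM in knockout replicates 1, 2 and 3 and at 41.7, 11.3 and 34.4 TPM in control replicates 1, 2 and 3. Enpp1, a membrane enzyme that can inhibit the insulin receptor, ran from 0.38 to 3.43 TPM in control and from 1.73 to 4.61 TPM in knockout. Grb14, an adaptor that inhibits the insulin receptor, ran from 9.19 to 24.9 TPM in control and from 8.15 to 23.1 TPM in knockout. Igf2bp3, an RNA-binding protein named for its binding of Igf2 transcripts, was listed at 2.95 TPM in knockout replicate 3 and at no more than 0.37 TPM in the other libraries, and it did not pass the filter on low values.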
